A study of Mus musculus with 12 samples.

Results

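The genes examined here are those of the Wnt pathway at the cell surface and just beneath it: the Wnt ligands, the Frizzled and Lrp receptors, the secreted inhibitors of the Sfrp, Dkk and Wif families, and a group of intracellular and nuclear regulators. They were chosen by name, as every probe whose annotated symbol was a Wnt, a Frizzled, an Sfrp, a Dkk or a Dishevelled, or was Lrp5, Lrp6, Ctnnb1, Axin1, Axin2, Apc, Lef1, Nkd1, Nkd2 or Wif1. This gave 72 of the 38784 probes, for 50 of 16969 named genes. They divide into 19 ligands, 12 receptors, 9 secreted inhibitors and 10 intracellular or nuclear factors. No probe carried the symbol Tcf7.

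Wnt proteins are secreted, lipid-modified signals that bind a Frizzled receptor together with the co-receptor Lrp5 or Lrp6. Dishevelled (Dvl) proteins then relay the signal to a complex built on Axin and Apc, which otherwise marks beta-catenin, the product of Ctnnb1, for degradation. Stabilised beta-catenin acts in the nucleus with transcription factors such as Lef1, and Axin2, Lef1, Nkd1, Nkd2 and Dkk1 are among the feedback targets of the pathway. In fibroblasts the pathway is known for its part in proliferation and matrix production.

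RNA came from mouse 3T3 cells, an established embryonic fibroblast line, that had been exposed to Shld1 at 10 nM, 100 nM or 1 µM or were left as controls, with 3 arrays in each of the 4 groups. Shld1 is a synthetic ligand of a destabilizing domain derived from FKBP12 and protects proteins fused to that domain from degradation. Neither the time of exposure nor whether the cells carried such a fusion protein is stated in the labels. On each of the 12 arrays the cells' RNA was labelled with Cy5 and a commercial mouse reference RNA with Cy3, with no dye swap. Every level below is a log2 ratio of cells over reference, centred so that 0 is the array's median probe, and every dose value is a difference between such ratios. The log base is taken as 2, and the direction follows from the dyes. Were the ratio inverted in the deposited values, every sign would turn. A gene was tested where each group had values on at least 2 arrays, and was called where limma's adjusted p (Benjamini-Hochberg over the 14523 genes tested) was under 0.05.

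The arrays carried values for 30649 to 33615 probes each. Most fibroblast marker genes fitted the label: 10 of 12 were called above the reference and 1 below, with a median log2 ratio of 1.22. Beside these and the marker counts that follow, 38.6% of all genes tested were called above and 34.4% below. Lum and Postn were highest, at 3.37 and 2.83, and the lowest marker lay at -0.72. Of 9 leukocyte markers, 7 were called below and none above, and the pan-leukocyte gene Ptprc lay at -2.42. Epithelial markers were mixed, with 2 called above and 4 below of 7. Of 4 endothelial markers 1 was called each way. In RNA from a whole culture, fewer cells that make a transcript and less of it per cell cannot be told apart.

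Of the 50 Wnt pathway genes, 47 could be tested and 40 had a value on all 12 arrays. Sfrp4, a secreted Frizzled-like inhibitor, was blank on every array. Fzd3, a receptor known from planar polarity and axon guidance, had values on 2 arrays: -0.77 at 10 nM and -0.16 at 1 µM. The ligand Wnt2 had 3: -0.74 at 10 nM, -0.56 at 100 nM and 0.02 at 1 µM. None of these 3 genes had a value in controls, and a blank gives no level. Blank cells made up 7.06% of all probe and array combinations of the Wnt genes, against 12.5% for probes with 1 symbol. They were most frequent for secreted inhibitors, at 14.2%, and least for intracellular factors, at 3.51%.

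Against the reference RNA, Frizzled receptors held the highest positions among the Wnt genes, and Wnt7b the lowest. In all, 33 of 47 were called, 19 above and 14 below. Over all genes tested 73% were called, 38.6% above and 34.4% below, so the share of Wnt genes called was near that of genes at large. Beyond a log2 ratio of 1 there were 5 called above (6.53% of all genes) and 1 below (5.32%). Without centring, ratios shift by -0.15 on average, and 14 Wnt genes were called above and 19 below. No called gene changed sign.

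Fzd1, a receptor coupled to beta-catenin signalling, had the highest log2 ratio, 1.62 (SE 0.07, adjusted p = 4.39e-09 by limma, 12 arrays). Its arrays spanned 0.95 to 1.86 with a median of 1.66, so it stood above the reference on 12 of 12. Fzd8 followed at 1.24 (SE 0.11; lowest array 0.36, median 1.32, highest 1.74). Fzd4, which is also the receptor for Norrin in retinal vessels, lay at 1.18 (SE 0.07; 0.70, 1.19 and 1.64). Fzd5, needed for yolk sac vessels in the mouse, lay at 1.11 (SE 0.06; 0.79, 1.14 and 1.36). These 4 genes were above 0 on every array, and Fzd2 was also called above, at 0.60. The other 4 Frizzled genes tested passed in neither direction: Fzd7 lay at 0.20, Fzd6 at -0.02, Fzd9 at -0.15 and Fzd10 at -0.32. Fzd10 lay at -0.16 without the low first control array, and was then called below (adjusted p = 0.019 by limma). It was called below in 6 of 23 alternative fits, also without the second control array (-0.41) and without the third (-0.40). Of the co-receptors, Lrp6 was called above at 0.31 (SE 0.09, adjusted p = 0.00855 by limma), ranging from -0.41 to 0.76 over arrays, and Lrp5 lay at -0.01.

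Ligands were split, with 8 of 18 called above and 7 below. Wnt5b, known from cartilage growth, was highest at 0.84 (SE 0.06; lowest array 0.61, median 0.82, highest 1.17). Wnt10a, a ligand of tooth and hair development, lay at 0.80 (SE 0.10; 0.03, 0.90 and 1.45). Wnt9b, Wnt8b, Wnt16, Wnt5a, Wnt11 and Wnt3a were called above at 0.18 to 0.70. At the other end, Wnt7b, a ligand for brain vessel growth, lay at -1.37 (SE 0.18; -2.34, -1.37 and -0.45) and was below 0 on all 12 arrays. Wnt4, known from kidney tubule formation, had 11 values and lay at -0.94. Wnt9a, a ligand of joint formation, lay at -0.91 (SE 0.07; -1.31, -0.90 and -0.45), Wnt7a, a dorsal signal of the limb, at -0.87 (SE 0.11; -2.10, -0.89 and -0.19) and Wnt1, a midbrain signal, at -0.50 (SE 0.08; -1.04, -0.53 and -0.10). Wnt6 and Wnt3 were called below at -0.41 and -0.23, while Wnt2b, Wnt10b and Wnt8a did not pass.

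Among the 8 secreted inhibitors tested, Dkk2, Sfrp2 and Sfrp5 were called above the reference and Dkk1 and Dkk3 below. Dkk2, which binds Lrp co-receptors, lay at 1.06 with the widest spread of all the Wnt genes: its 10 values ran from -0.60 to 2.66. Sfrp2, which binds Wnt proteins outside the cell, lay at 0.88 (SE 0.13; lowest array -0.08, median 0.83, highest 1.69). Sfrp5, of the same family, lay at 0.86 and was among the steadier genes, from 0.69 to 1.05. Dkk1, a blocker of Lrp5 and Lrp6, lay at -0.66 over 11 values. Sfrp1, Wif1 and Dkk4 did not pass.

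Of the 10 intracellular and nuclear factors, 2 were called above and 5 below. Ctnnb1 itself lay at 0.20 (SE 0.06, adjusted p = 0.00913 by limma), with arrays from -0.06 to 0.51. Dvl2 was called above at 0.48, whereas Dvl1 and Dvl3 were called below at -0.28 and -0.31. Lef1, the nuclear partner of beta-catenin, lay at -0.97 (SE 0.08; lowest array -1.36, median -0.91, highest -0.62), below 0 on 12 of 12 arrays. Apc lay at -0.46 (SE 0.06; -0.79, -0.48 and -0.16) and Nkd2, which binds Dishevelled, at -0.42 (SE 0.07; -0.93, -0.56 and 0.44). Axin1, Axin2 and Nkd1 did not pass. Without centring, Ctnnb1 (0.05), Lrp6 (0.16), Wnt5a (0.15), Wnt11 (0.08) and Wnt3a (0.02) are no longer called. Axin2 (-0.36), Lrp5, Nkd1, Fzd9 and Fzd10 are then called below.

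**Figure D1:**
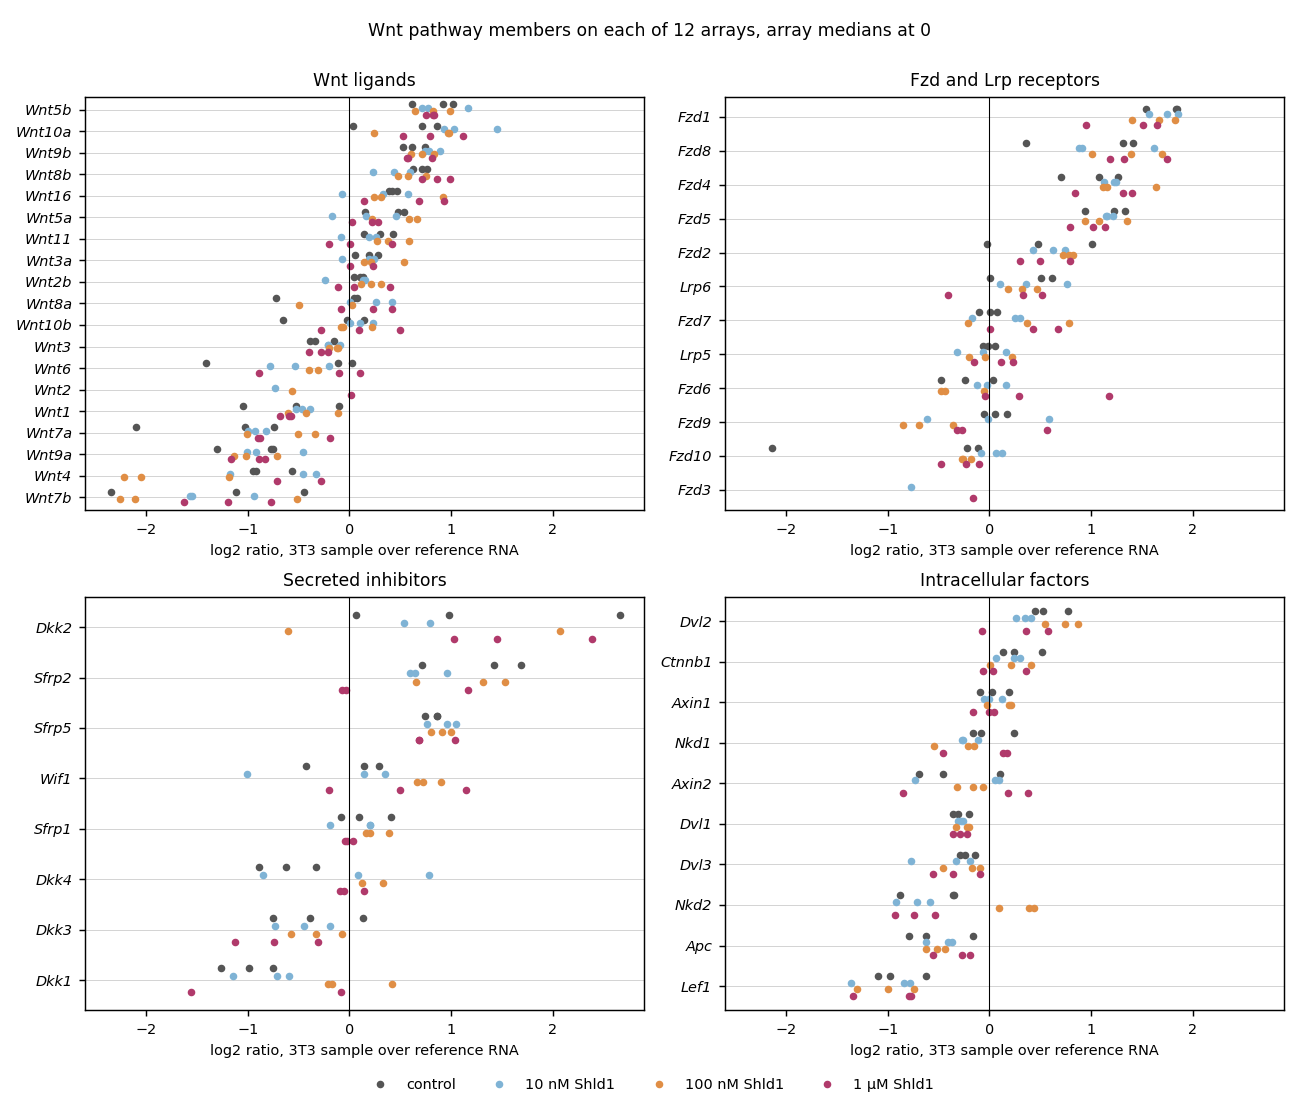
Log2 ratio of 3T3 cells over reference RNA for each Wnt pathway gene and each of the 12 arrays, grouped by role, with control arrays followed by 10 nM, 100 nM and 1 µM Shld1. Fzd1, Fzd8, Fzd4 and Fzd5 lie above 0 on all 12 arrays, and Lef1, Wnt7b and Wnt9a below it on all 12.

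For 19 of the 50 genes several probes were present, and for some of them the level depended on the probe. Apc had probe means of 0.45, -0.48 and -1.37, and Wnt5a, a ligand of non-canonical signalling, of 1.17 and -0.57. Dkk3 lay at -0.46 on the probe with 12 values and at 1.71 on another with 11, so that a plain mean of both would place it above the reference, at 0.54. Lef1 was below 0 on each of its probes, at -0.69 and -1.25 on 12 arrays and at -3.96 on a probe with only 6 values. The 2nd probe of Wnt10b had 2 values, both in controls, with a mean of -3.02. Dvl3 (0.10 and -0.72), Lrp5 (0.43 and -0.44) and Nkd2 (-0.42 and 0.22) had probes on opposite sides of 0, and so did Axin1, Nkd1, Wnt6 and Wnt8a. The position of these genes against the reference therefore held for a probe, and which probe reports the transcript was not tested.

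**Figure D2:**
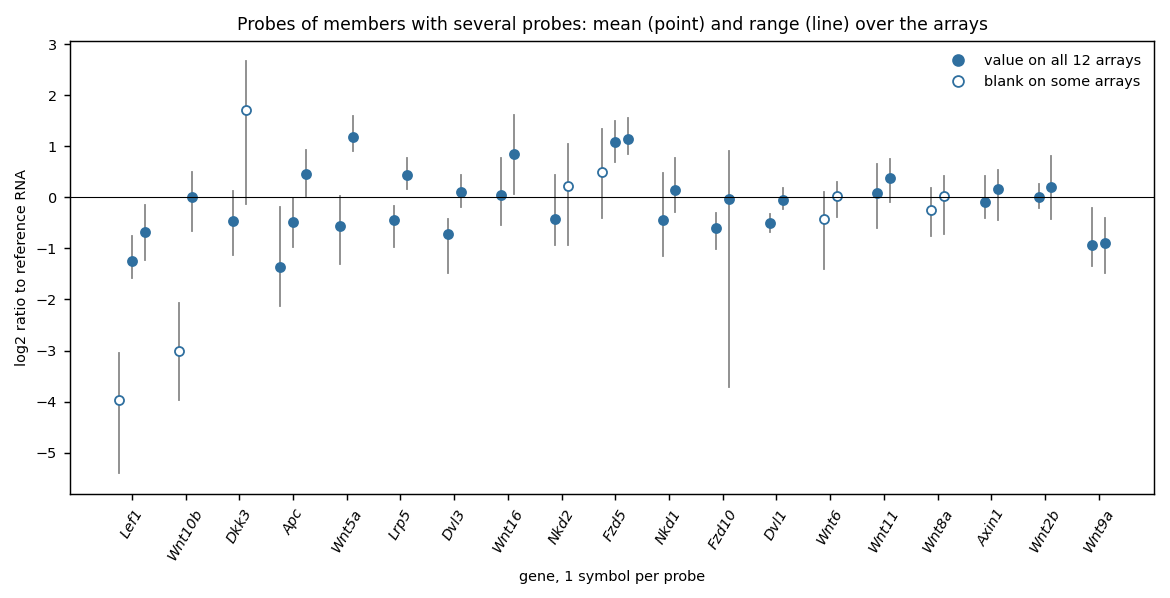
Mean log2 ratio over the arrays with a value for every probe of the Wnt genes that have several probes. Probes of Dkk3, Apc, Wnt5a and Wnt10b lie more than 1 apart on either side of 0, and those of Lef1 are all below it. The lower Wnt10b probe has only 2 values, both in controls.

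Spread between arrays of a group was similar for the Wnt genes and for genes at large, with a median residual SD of 0.27 in both sets. Dkk2 varied most, with an SD of 1.15, followed by Wnt7b at 0.73 and Fzd10 at 0.58. Dvl1 varied least, at 0.065, then Wnt3 at 0.088 and Wnt9b at 0.11. Dvl1, the mean of 2 probes, illustrates the precision at that end. Its values were -0.31, -0.20 and -0.36 in controls, -0.31, -0.26 and -0.28 at 10 nM, -0.33, -0.22 and -0.20 at 100 nM and -0.22, -0.29 and -0.36 at 1 µM. All 4 groups overlap in this mean. On 1 probe the 100 nM arrays (0.01, 0.12 and 0.10) lay above the controls (-0.14, -0.03 and -0.16). The other probe read -0.67, -0.56 and -0.50 at 100 nM, against -0.48, -0.37 and -0.56 in controls.

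The dose comparisons set cells exposed to Shld1 against control cells. By limma with Benjamini-Hochberg adjustment, 0 of 47 Wnt genes passed at 10 nM, 100 nM or 1 µM, where the background is 0% of genes called at each dose. At an unadjusted p under 0.05 there were 1, 5 and 2 of the 47 Wnt genes, against 2.48%, 3.02% and 4.26% of all genes. The median difference from control of the 47 genes was 0.00, 0.09 and 0.02 at the rising doses, and that of all genes -0.01, 0.02 and -0.02. The 95% interval of the difference lay wholly within a log2 change of 1 for 39, 35 and 35 of 47 genes. For the remainder a change of that size lies inside the interval. All intervals of the 10 intracellular factors lay within that limit at 10 nM and 1 µM, and 9 of 10 at 100 nM. Of the 8 secreted inhibitors 4, 4 and 3 did.

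**Figure D3:**
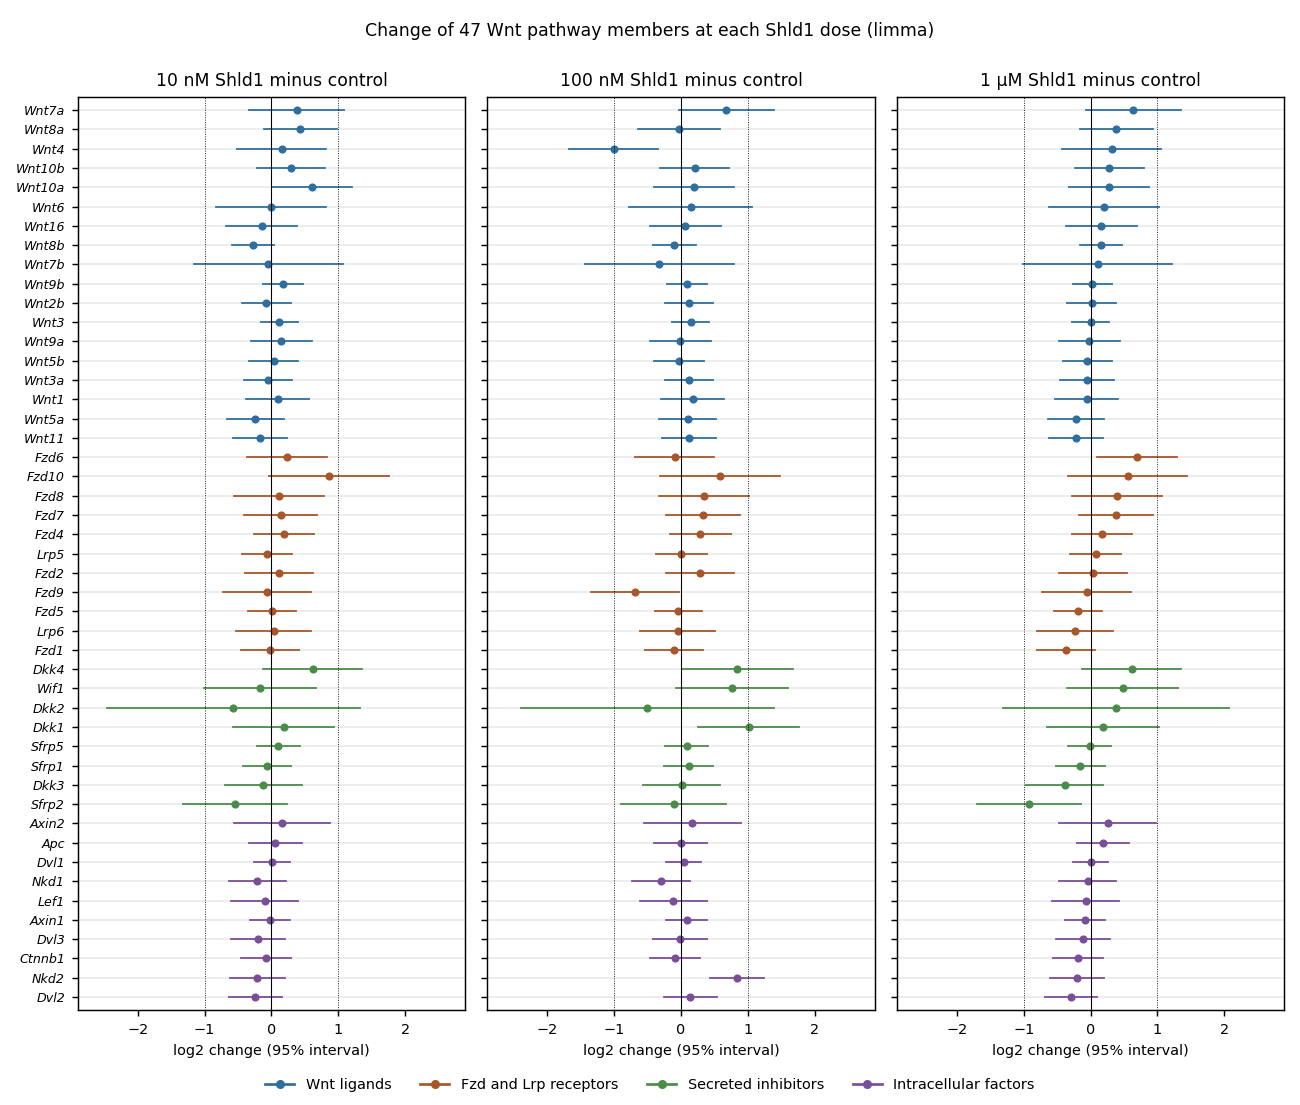
Difference in log2 ratio between each Shld1 dose and control for the 47 Wnt pathway genes tested, with 95% intervals from limma. Points scatter on both sides of 0 at each dose and no gene passed an adjusted p of 0.05.

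The centre of the pathway showed small differences. Ctnnb1 had values of 0.51, 0.13 and 0.24 in controls, 0.25, 0.30 and 0.07 at 10 nM, 0.01, 0.21 and 0.41 at 100 nM and -0.06, 0.36 and 0.04 at 1 µM. Its groups overlap throughout, and the difference at 1 µM was -0.18 (95% interval -0.56 to 0.19), or between -0.31 (without the second 1 µM array) and -0.07 (without the first control) when 1 array was left out. Axin2, the most widely used readout of beta-catenin signalling, had -0.69, -0.46 and 0.10 in controls, 0.09, -0.73 and 0.06 at 10 nM, -0.32, -0.07 and -0.16 at 100 nM and -0.85, 0.38 and 0.18 at 1 µM. Controls spanned more than the differences, which were 0.16, 0.17 and 0.25 at the rising doses (interval at 1 µM -0.47 to 0.97). Leaving out 1 array moved the value at 1 µM to between 0.02 (without the second 1 µM array) and 0.63 (without the first). Lef1 had -1.10, -0.98 and -0.62 in controls, -1.36, -0.84 and -0.78 at 10 nM, -1.001, -1.30 and -0.74 at 100 nM and -1.34, -0.77 and -0.80 at 1 µM. Every group overlaps every other, with differences of -0.10, -0.11 and -0.07 from control. Lrp6 had 0.51, 0.01 and 0.61 in controls, 0.10, 0.76 and 0.36 at 10 nM, 0.32, 0.18 and 0.47 at 100 nM and 0.51, -0.41 and 0.33 at 1 µM. The second control and second 1 µM arrays were the low ones, the groups overlap, and the interval at 1 µM was -0.80 to 0.33.

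At 10 nM the genes with the smallest p were Wnt10a, Fzd10 and Wnt8b. Wnt10a had log2 ratios of 1.03, 0.93 and 1.45 at 10 nM, against 0.03, 0.86 and 0.71 in controls. The groups do not overlap, and the difference was 0.60 (SE 0.27, adjusted p = 1.00 by limma), or 0.35 without the low first control. Wnt8b, a ligand of the developing forebrain, had 0.44, 0.59 and 0.24 at 10 nM and 0.71, 0.62 and 0.76 in controls, a difference of -0.28 (SE 0.15). Its dosed arrays were all below the controls, and the difference is -0.18 without the lowest 10 nM array. Fzd10 had 0.07, -0.09 and 0.12 at 10 nM, against -2.14, -0.11 and -0.22 in controls, a difference of 0.86 (SE 0.41). Here the low first control array carried the value. On 1 probe of Fzd10 that array read -3.71, beside 0.78 and 0.49 in the other controls, and without it the gene's difference is 0.20. By probe the difference at 10 nM was 0.25 and 1.46. The 3 arrays at 10 nM were also above the other 9, as for 0.254% of all genes. In all, 2 of 46 Wnt genes with 6 values had every 10 nM array above every control (Wnt10a and Fzd10; 3.12% of all genes) and 2 had every one below (Wnt8b and Dvl2; 3.27%).

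At 100 nM the smallest p values belonged to the feedback inhibitors Nkd2 and Dkk1 and the ligand Wnt4. Nkd2 had 0.38, 0.44 and 0.10 at 100 nM, against -0.88, -0.35 and -0.36 in controls. The 100 nM arrays were also above all 6 arrays of the other doses, at -0.92, -0.58 and -0.71 for 10 nM and -0.93, -0.74 and -0.54 for 1 µM. The difference from control was 0.84 (SE 0.19, 95% interval 0.43 to 1.25, adjusted p = 1.00 by limma). A single group set apart from the other 9 arrays on the high side occurred for 1 of 40 Wnt genes at 100 nM and for 0.47% of all genes. The 1 µM and 10 nM arrays of Nkd2 overlap, and the difference of 1 µM from 100 nM was -1.04 (adjusted p = 0.898 by limma), a comparison added after the values were seen. In that comparison 0 Wnt genes and 0 genes in all were called (0%), and 5 Wnt genes and 4.81% of all genes had an unadjusted p under 0.05. Between 100 nM and 10 nM the counts of called genes were also 0 (0%), with 4 Wnt genes and 3.66% of all genes at that level. Its 2nd probe gave another picture. That probe had -0.16 on the only 100 nM array with a value and 0.82, -0.44 and 0.92 in controls, and the plain mean of both probes gave a difference of 0.31.

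Dkk1 had log2 ratios of -0.17, 0.41 and -0.21 at 100 nM, against -1.26, -0.76 and -0.99 in controls. The groups do not overlap, and the difference was 1.01 (SE 0.34, 95% interval 0.26 to 1.77). At 10 nM (-0.60, -0.72 and -1.14) and at 1 µM (-1.56 and -0.08, with 1 blank) its values overlapped the controls. Wnt4 lay lower at 100 nM, at -1.18, -2.05 and -2.22, against -0.92, -0.95 and -0.56 in controls, a difference of -1.01 (SE 0.30, 95% interval -1.67 to -0.34). Its values at 10 nM (-0.46, -1.17 and -0.33) and 1 µM (-0.72 and -0.28, with 1 blank) were each above all 3 at 100 nM, the nearest by little (-1.17 at 10 nM and -1.18 at 100 nM). Wif1, which binds Wnt proteins, also had every 100 nM array (0.66, 0.72 and 0.90) above every control (-0.43, 0.15 and 0.29). Fzd9 had every 100 nM array (-0.36, -0.70 and -0.85) below every control (0.05, 0.17 and -0.06). Dkk4, with 0.33 and 0.12 at 100 nM and 1 blank, differed by 0.84 (SE 0.37) from its controls at -0.89, -0.63 and -0.33. Of 43 genes with all 6 values, 3 lay wholly above the controls (Nkd2, Dkk1 and Wif1; 4.04% of all genes) and 2 wholly below (Wnt4 and Fzd9; 3.26%).

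Because Nkd2 and Dkk1 are both described as targets of beta-catenin, their promoters are shown beside those of Axin2 and Lef1, feedback targets whose 100 nM arrays overlapped the controls. Nkd1, another such target, also overlapped (-0.54, -0.21 and -0.15 at 100 nM, against -0.09, -0.16 and 0.24 in controls), and its window is not printed. Each is the 300 bases from 250 before to 50 after a RefSeq start site (GRCm38.p6), written 5′ to 3′ on the gene's strand. They lie at chr19:30549447-30549746 (minus strand) for Dkk1, chr13:73847582-73847881 (minus) for Nkd2, chr11:108920099-108920398 (plus) for Axin2 and chr3:131156044-131156343 (plus) for Lef1. Capitals mark the core of the Tcf and Lef binding motif, CTTTGA or CTTTGT, on either strand.
Dkk1: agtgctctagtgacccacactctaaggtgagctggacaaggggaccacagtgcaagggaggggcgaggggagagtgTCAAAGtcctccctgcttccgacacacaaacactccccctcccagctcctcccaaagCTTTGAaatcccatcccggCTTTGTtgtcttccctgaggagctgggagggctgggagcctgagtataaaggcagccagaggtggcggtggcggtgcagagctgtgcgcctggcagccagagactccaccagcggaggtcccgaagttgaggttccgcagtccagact
Nkd2: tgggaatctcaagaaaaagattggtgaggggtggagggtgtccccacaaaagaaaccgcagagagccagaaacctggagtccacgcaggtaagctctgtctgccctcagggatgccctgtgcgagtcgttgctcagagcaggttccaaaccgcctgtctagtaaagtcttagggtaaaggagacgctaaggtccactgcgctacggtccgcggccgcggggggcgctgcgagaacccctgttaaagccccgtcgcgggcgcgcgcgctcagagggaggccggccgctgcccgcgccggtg
Axin2: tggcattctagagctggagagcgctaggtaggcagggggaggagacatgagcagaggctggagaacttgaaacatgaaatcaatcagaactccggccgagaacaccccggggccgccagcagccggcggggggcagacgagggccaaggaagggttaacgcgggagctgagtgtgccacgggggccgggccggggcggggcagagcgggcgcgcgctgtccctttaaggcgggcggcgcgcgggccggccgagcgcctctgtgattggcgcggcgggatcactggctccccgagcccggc
Lef1: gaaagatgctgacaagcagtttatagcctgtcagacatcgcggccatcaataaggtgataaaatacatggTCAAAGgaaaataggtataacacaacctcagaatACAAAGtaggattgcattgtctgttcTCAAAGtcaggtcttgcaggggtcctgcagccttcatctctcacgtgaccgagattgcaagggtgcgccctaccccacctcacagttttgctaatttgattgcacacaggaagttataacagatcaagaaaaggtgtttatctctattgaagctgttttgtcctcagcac
Dkk1 held 3 matches, this start of Lef1 also 3, and Nkd2 and Axin2 none, as for the window of Nkd1. The other Lef1 windows, from chr3:131110047, chr3:131110073 and chr3:131112541, held none. The printed window lies downstream of them and is the only Lef1 window with a match. Of the 34 Wnt genes with a window 9 held at least 1 match, 26.5%, against 34.5% of 27025 genes, so the letters are common in windows of this length. A match in these letters is a description of the sequence and not evidence of binding.

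At 1 µM the smallest p values belonged to Sfrp2, Fzd6 and Wnt7a, and none of the 3 at 1 µM was among the 3 at another dose. Sfrp2 had 1.16, -0.08 and -0.04 at 1 µM, against 1.69, 1.42 and 0.71 in controls. The groups overlap in the first 1 µM array, and the difference was -0.92 (SE 0.36, 95% interval -1.70 to -0.14, adjusted p = 0.999 by limma). At 10 nM (0.60, 0.64 and 0.96) and 100 nM (1.52, 0.65 and 1.31) it lay within or below the range of controls. Fzd6, a receptor that orients hair follicles in the mouse, had 1.17, -0.04 and 0.29 at 1 µM and -0.48, -0.24 and 0.04 in controls, a difference of 0.70 (SE 0.27). The first 1 µM array was far above the others, and without it the difference is 0.35. Wnt7a had -0.19, -0.90 and -0.88 at 1 µM and -2.10, -1.03 and -0.75 in controls, a difference of 0.64 (SE 0.32), which is 0.23 without the low first control. Of 44 genes with 6 values only Dkk4, an inhibitor that binds Lrp co-receptors, had every 1 µM array (0.14, -0.05 and -0.09) above every control (-0.89, -0.63 and -0.33), against 3.35% of all genes. None lay wholly below, against 4.2%.

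No marker gene of another cell type, or of fibroblasts, was called at a dose, and their levels are given here beside the Wnt genes. The mean log2 ratio of the 12 fibroblast markers was 0.94 to 1.22 on 1 µM arrays and 1.28 to 1.61 on control arrays, with 10 of 12 lower at 1 µM, where 46.99% of all genes were above control. At 10 nM the mean was 1.13 to 1.31, with 11 of 12 lower than control, and at 100 nM 1.22 to 1.49, with 6 lower. The 1 µM arrays lay below the controls, and those of the other doses overlapped them. The 9 leukocyte markers averaged -1.07 to -0.74 on 1 µM arrays and -2.03 to -0.80 on control arrays, with 9 of 9 higher. On 10 nM arrays they averaged -1.18 to -0.93, with 6 of 9 higher, and on 100 nM arrays -1.55 to -1.03, with 3 of 9 higher. At each dose the leukocyte arrays overlapped the controls. Epithelial markers stood at a median difference from control of 0.14 at 10 nM (4 of 7 higher), -0.30 at 100 nM (3 of 7) and 0.14 at 1 µM (5 of 7). The 4 endothelial markers stood at -0.33, -0.40 and -0.13, with 1 of 4 higher at each dose. The part of these lists in the values of the Wnt genes at each dose was not tested.

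**Figure D4:**
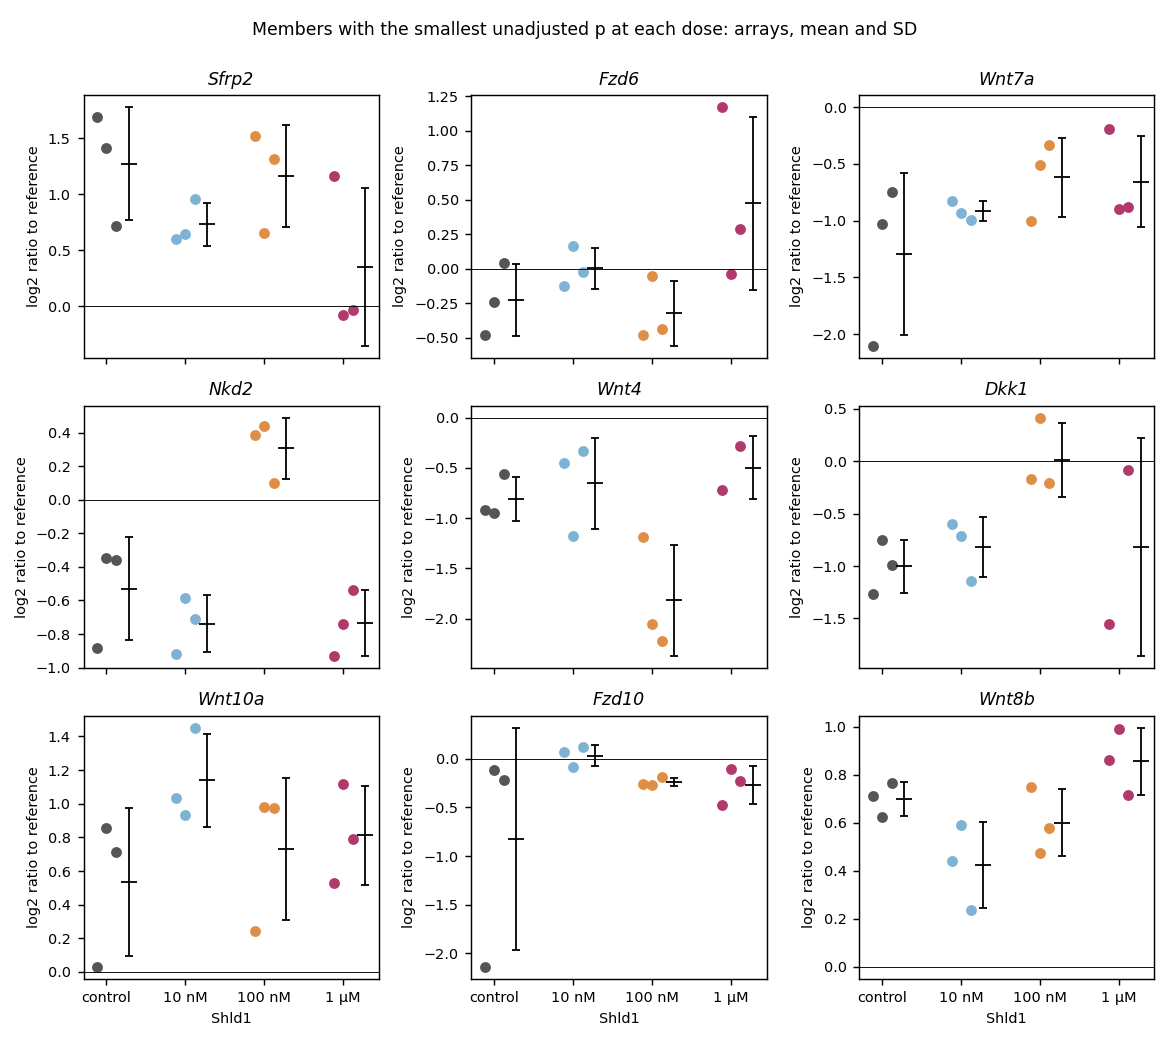
Log2 ratio on each array, by group from control to 1 µM Shld1, for the 3 Wnt genes with the smallest unadjusted p at each dose. The 3 arrays of Nkd2 at 100 nM lie above the other 9, and the first control array of Fzd10 lies far below the rest.

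Over the 3 doses together 0 Wnt genes were called by limma (0% of all genes), and 1 had an unadjusted p under 0.05 (3% of all genes). That gene was Dkk4, at 0.69 (SE 0.28), with differences of 0.62, 0.84 and 0.615 at the rising doses. Its 10 nM arrays (-0.85, 0.085 and 0.78) overlapped the controls. A linear trend over the rank of dose also called 0 (0%), with 0 Wnt genes and 3.56% of all genes at an unadjusted p under 0.05. The doses share their controls, so a control array that stands apart enters each comparison.

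Other parts of the pathway were measured on the same arrays, and none of their genes was called at a dose. Their counts stand beside 46.99% of all genes above control at 1 µM and, against the reference, 38.6% of all genes called above and 34.4% below. Receptor partners and extracellular regulators, such as the R-spondins and glypicans, had 22 of 24 genes measured, 8 above control and 14 below at 1 µM, with a median of -0.05. Their smallest p values belonged to Gpc4, a heparan sulphate carrier, at -0.75 (SE 0.22), and Ror1, a receptor for Wnt5a, at -0.79 (SE 0.28). Against the reference 11 were called above and 7 below, from Cthrc1, a secreted matrix protein, at 2.79, to Rspo2 at -1.94. The 9 genes of Wnt secretion included Wls, the carrier of Wnt proteins, at -0.16 from control, and Porcn, which attaches their lipid, at -0.31. Of these 9, 1 was above control at 1 µM and 8 below, with a median of -0.06, and 7 were called above the reference and 1 below. Destruction complex and nuclear factors had 36 of 40 measured, 18 each way at 1 µM (median 0.00). The kinase gene Csnk1e was at 0.49 and the phosphatase subunit gene Ppp2r5e at -0.30 from control at 1 µM, and 18 of the list were called above the reference and 8 below. Planar polarity genes had 16 of 17 measured, 3 above and 13 below at 1 µM (median -0.15), with Prickle2 at -0.92 and Scrib at 0.45, and 6 were called above and 7 below the reference. The lists share genes: Lgr5, Rnf43, Znrf3, Notum and Apcdd1 were listed as receptor partners and as targets, and Prickle1 as planar polarity gene and target. Reported beta-catenin targets beyond the Wnt genes themselves had 30 of 38 measured, 15 each way at 1 µM (median 0.00). Among these Notum, which removes the lipid of Wnt proteins, was at -0.42 and Fosl1, a component of AP-1, at 0.34, and 13 were called above the reference and 8 below. At the lower doses the lists differed in how many genes lay on either side of control. At 10 nM 11 receptor partners were above control and 11 below, 3 and 6 secretion genes, 19 and 17 destruction complex and nuclear factors, 2 and 14 planar polarity genes and 12 and 18 targets, where 48.4% of all genes were above. At 100 nM the counts were 12 and 10, 4 and 5, 31 and 5, 6 and 10, and 21 and 9 in the same order, where 53.9% of all genes were above. The target with the widest difference was Edn1, which encodes endothelin 1, at -3.01 at 10 nM (SE 0.96, adjusted p = 1.00 by limma), with a mean of -3.90 over its 2 values there and -0.89 in controls.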

How the data were processed

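The deposited values are, for each probe and array, a log2 ratio: 3T3 RNA in Cy5 over reference RNA in Cy3 per the labels, read on an Axon scanner. The log base of 2 is assumed. How the authors normalized the arrays, corrected background or filtered spots was not given in the sources used here. Scanner intensities were not analysed here. Direction was taken from the dyes, which were not swapped, so a dye effect cannot be told apart from a difference from the reference, and the spread of the reference is left out. No label tells if the 3 replicates of a group were independent cultures, so p-values measure only the spread between these samples. The number of arrays limits the precision.

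Probes were named from the platform's annotation, with symbols updated from a RefSeq table: 26173 had 1 symbol and 28 several, none of the latter a Wnt gene probe. Array columns were centred on their medians (-0.203 to -0.095). Probes of a gene with values on all 12 arrays were averaged, and where no probe was complete the fullest was used. All 4 groups were fitted together in limma 3.58.1 (R 4.3.3), with group as the only term, and 14523 genes with values on at least 2 arrays of every group were tested. P-values were adjusted by Benjamini-Hochberg, and intervals are at 95%. The procedure was tested on simulated data. The differences between doses were added after the values were seen.

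Members and lists were chosen with earlier results of these data known. Array values are given for the 3 Wnt genes with the smallest p at each dose, for up to 8 at either end against the reference with values on all 12 arrays, and for Ctnnb1, Axin2, Lef1, Lrp6 and Dvl1. Genes whose arrays did not overlap the controls were named after their values were seen, as were marker genes and Cthrc1, Rspo2 and Edn1. From other lists the 2 genes with the smallest p at 1 µM are named. Alternatives covered centring, scaling, quantile normalization, filters on blanks, probe summaries, the replicate number as a block, fits of the compared groups, robust variance, array weights and leaving out each array. Promoter windows came from RefSeq (GRCm38.p6). Plots were made in Python 3.11.15 with matplotlib 3.10.9.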

Additional observations from a re-analysis of the deposited data

How the results depend on the processing

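No Wnt gene was called at any dose under any alternative run. The differences of the 3 genes with the smallest p at each dose kept their sign. They lay between -1.33 and -0.71 for Sfrp2, 0.31 and 0.94 for Nkd2, -1.33 and -0.81 for Wnt4, and 0.81 and 1.14 for Dkk1. These genes were chosen for their small p on the same arrays, so a kept sign is no independent support. For Nkd2, Dkk1, Wnt4, Wnt10a, Fzd10 and Wnt8b no array at that dose overlapped the controls. Leaving out 1 array could not turn their sign. Smaller differences turned: in some of the alternatives Ctnnb1 and Axin2 changed sign at 10 and 100 nM, Lef1 at each dose and Lrp6 at each dose. Without the first control array Axin2 lay at -0.02 at 10 nM and -0.002 at 100 nM. Lef1 at 1 µM ran from -0.17 to 0.12 over the fits that left out an array. It reached 0.84 with the plain mean of its probes. Its probe with a mean of -3.96 had values on all 3 controls and was blank at 1 µM. The 0.84 therefore compares means of different probes. Leaving out each array gave 0 Wnt genes called at each dose. With every probe tested by itself, 1 probe outside the Wnt genes was called at 1 µM and 1 in the trend over dose, where no gene was called otherwise. Against the reference, leaving out an array gave 30 to 35 Wnt genes called, and 9926 to 10366 genes in all, against 33 and 10600. With the control arrays alone 18 Wnt genes and 5409 genes were called, and with every probe tested by itself 21637 probes. There are fewer arrays in the first of these and more features in the second. Of 460 alternative values of the 20 genes described singly against the reference, 447 kept sign and call and 11 lost the call, 8 of these with the control arrays alone. Without centring 5 of the 33 Wnt genes lost the call and 5 others gained it. Dkk3 turned to 0.54 with the plain mean of its probes. Without centring 39.3% of called genes lay above the reference, against 52.9% with it.

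With the replicate number as a block 35 Wnt genes were called against the reference, 33 as a random block, and 0 at each dose. With the number as a fixed term 501, 498 and 772 genes had unadjusted p under 0.05 at rising doses, against 360, 438 and 618. Among the 47 Wnt genes the counts were 3, 3 and 3 with that term, against 1, 5 and 2 without it. SEs and intervals above are without a block. In the titles, arrays of a replicate number carry consecutive array numbers, with 1 array from each group. The labels do not say what a number shares. It was not treated as a pairing because 10 of 18 same-numbered pairs, not all, correlated over 0.1 in their deviations from the group means. The range was -0.11 to 0.28. Over 0.1 were 6 of 6 for number 1, 1 of 6 for number 2 and 3 of 6 for number 3. As a hint from the data, the median was 0.12 for these pairs and -0.05 for others, and 8 of 12 arrays correlated best with their own number. Signal over background is unknown, so weak spots could not be set apart.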
